A study of Mus musculus with 6 samples.

Results

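Genes of chromatin remodellers, Polycomb complexes and histone deacetylases were examined in whole mouse embryos at embryonic day 8.5. The members were taken by symbol: the Smarc genes of groups a to e, the Chd, Arid1, Arid2, Cbx, Ezh and Hdac genes, and Eed, Suz12, Bmi1, Rnf2, Ring1, Kmt2a and Kmt2d, where the platform annotation gave a probe set that symbol alone. Hdac6, Hdac8 and Smarca1 lie on the X chromosome and were left out by the same rule. This gave 49 genes, measured by 121 probe sets, out of 18193 named genes and 45037 probe sets without the control probe sets. Short oligonucleotides on the array are read together as a probe set that reports 1 transcript. For each gene the probe set with the highest mean over all 6 arrays was used. Of the 121 probe sets, 100 were bright enough to be tested, among them the brightest of all 49 genes.

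The embryos were 3 wild types and 3 Tcof1+/- littermates, with 1 Affymetrix Mouse430_2 expression array for each embryo. Tcof1 encodes treacle, a nucleolar protein that supports ribosomal RNA synthesis, and the series addresses Treacher Collins syndrome, a craniofacial disorder caused by loss of 1 copy of the human gene. No source used here gives the strain or the design of the Tcof1 allele. The embryos of a genotype were separate animals, and whether littermates came from 1 litter or several is likewise not stated. Replicates 1, 2 and 3 of each genotype are called embryos 1, 2 and 3 below.

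Chromatin regulators decide which stretches of DNA can be read. Remodellers such as SWI/SNF, ISWI and the CHD proteins use ATP to slide or evict nucleosomes. Polycomb repressive complex 2 (PRC2) methylates lysine 27 of histone H3, and Polycomb repressive complex 1 (PRC1) reads that mark through its Cbx subunits and ubiquitinates histone H2A. Histone deacetylases remove acetyl groups and generally lower transcription, and the trithorax methyltransferases Kmt2a and Kmt2d oppose Polycomb at developmental genes. Several of these genes matter for the head and heart of the embryo: loss of 1 copy of human CHD7 causes CHARGE syndrome, mutations of KMT2D cause Kabuki syndrome, and mutations of ARID1B cause Coffin-Siris syndrome.

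The Tcof1 signal was checked first. It was 382, 393 and 387 in wild-type embryos 1, 2 and 3 and 222, 179 and 231 in heterozygous embryos 1, 2 and 3, or 54.5% of the wild-type mean. On the other 2 tested Tcof1 probe sets the heterozygous mean was 64.9% and 60.9% of wild type without overlap, but neither was called (limma adjusted p = 0.582 and 0.385). On the brightest, the log2 difference was -0.88 (SE 0.12) with a limma adjusted p of 0.0352, and this call was lost when scan day entered the fit as a block (adjusted p = 0.0906) and whenever any 1 array was left out (adjusted p from 0.0586 to 0.19).

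Array medians lay between 21.0 and 25.6, in arbitrary units of signal, and pairs of arrays correlated between 0.964 and 0.974 on the log2 scale. Embryos 1 and 2 of each genotype, 4 arrays in all, were scanned on 1 day and embryo 3 of each on another. The 7 matched markers of the embryo proper summed to 4188 to 4741 in wild types and 4431 to 4714 in heterozygotes. The summed signal of 7 yolk sac endoderm markers ranged from 1855 to 9626 in wild types and from 836 to 14840 in heterozygotes, and that of 4 primitive erythroid markers from 5679 to 13469 and from 273 to 11078. Of the decidua and trophoblast markers, 4 of 5 were matched, and their sum was 63.0 to 89.1 in wild types and 63.4 to 78.1 in heterozygotes. Heterozygous embryo 1 had the lowest erythroid sum and the highest yolk sac sum, and heterozygous embryo 2 had the lowest yolk sac sum. Of the decidua and trophoblast markers only 1 was bright enough to be tested. The ranges of these sums overlapped in all 4 lists. Single markers of the embryo proper did not all overlap: 5 of the 7 separated the genotypes, beside 13.0% of all tested genes. None of the 7 was called. The neural markers Otx2 (-0.53, limma adjusted p = 0.649), Pax6 (-0.58, adjusted p = 0.492) and Sox2 (-0.23, adjusted p = 0.781) were lower in all heterozygotes. The cardiac markers Tbx20 (0.52, adjusted p = 0.162) and Myl7 (0.27, adjusted p = 0.742) were higher in all of them. The remaining markers, Pax3 (-0.18, limma adjusted p = 0.854) and Meox1 (-0.23, adjusted p = 0.88), overlapped between the genotypes. Gapdh is read at both ends of its transcript as a check on RNA quality, and the log2 signal of the 3 prime end minus that of the 5 prime end was 0.91 ± 0.11 (SD, n = 3) in wild types and 0.76 ± 0.07 (SD, n = 3) in heterozygotes, without overlap (exact permutation p = 0.1, the smallest that 3 against 3 can give). The part of RNA quality and tissue makeup in the differences below was not tested.

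No chromatin regulator was called between the genotypes. In the limma fit over 27022 probe sets, 0 of the 49 genes and 0 of their 100 tested probe sets passed at an adjusted p under 0.05, where 0.124% of all 12853 tested genes and 0.0814% of all tested probe sets did. The smallest adjusted p among the members was 0.650, for Cbx2. At an unadjusted p under 0.05 there were 3 members, Cbx2, Eed and Kmt2d, and 6 of the 100 probe sets, against 6.89% of all tested genes and 6.22% of all tested probe sets. The share of the members, 6.12%, and that of their probe sets were near the background. The 2 genotypes did not overlap for 4 members, Cbx2, Eed, Hdac5 and Kmt2d, or 8.16% of the 49, and for 10 of the 100 probe sets. Among all tested genes 13.0% did not overlap, and among all tested probe sets 12.2%.

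The intervals show which changes these arrays could have missed. Differences over the 49 members ran from -0.31 (Cbx2) to 0.19 (Ezh1) on the log2(signal + 1.87) scale, which understates the change of dim genes. The median was -0.02, beside -0.01 over all tested genes, and the difference was negative for 29 members and positive for 20, or 59.2% negative beside 52.7% of all tested genes. The 95% limma interval lay between -0.5 and 0.5 for 32 members, or 65.3%, beside 52.1% of all tested genes. It lay between -1 and 1 for 48 members, or 98%, beside 84% of all tested genes. The exception was Chd5, a CHD remodeller known from neurons. Chd5 had a mean signal of 15.5, close to the lower limit of 13.2 for testing, and an interval from -1.22 to 1.29. For the other 48 genes an unadjusted 95% interval on the brightest probe set therefore did not reach a change of 1 log2 unit. Smaller changes were within the intervals of many of them. Dimmer probe sets were less precise: the interval lay between -1 and 1 for 86 of the 100, beside 77.6% of all tested probe sets. On a dim Kmt2d probe set it ran from -2.20 to 0.28. In whole embryos, a lower signal from fewer cells that express a gene and from less RNA per cell cannot be told apart.

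**Figure D1:**
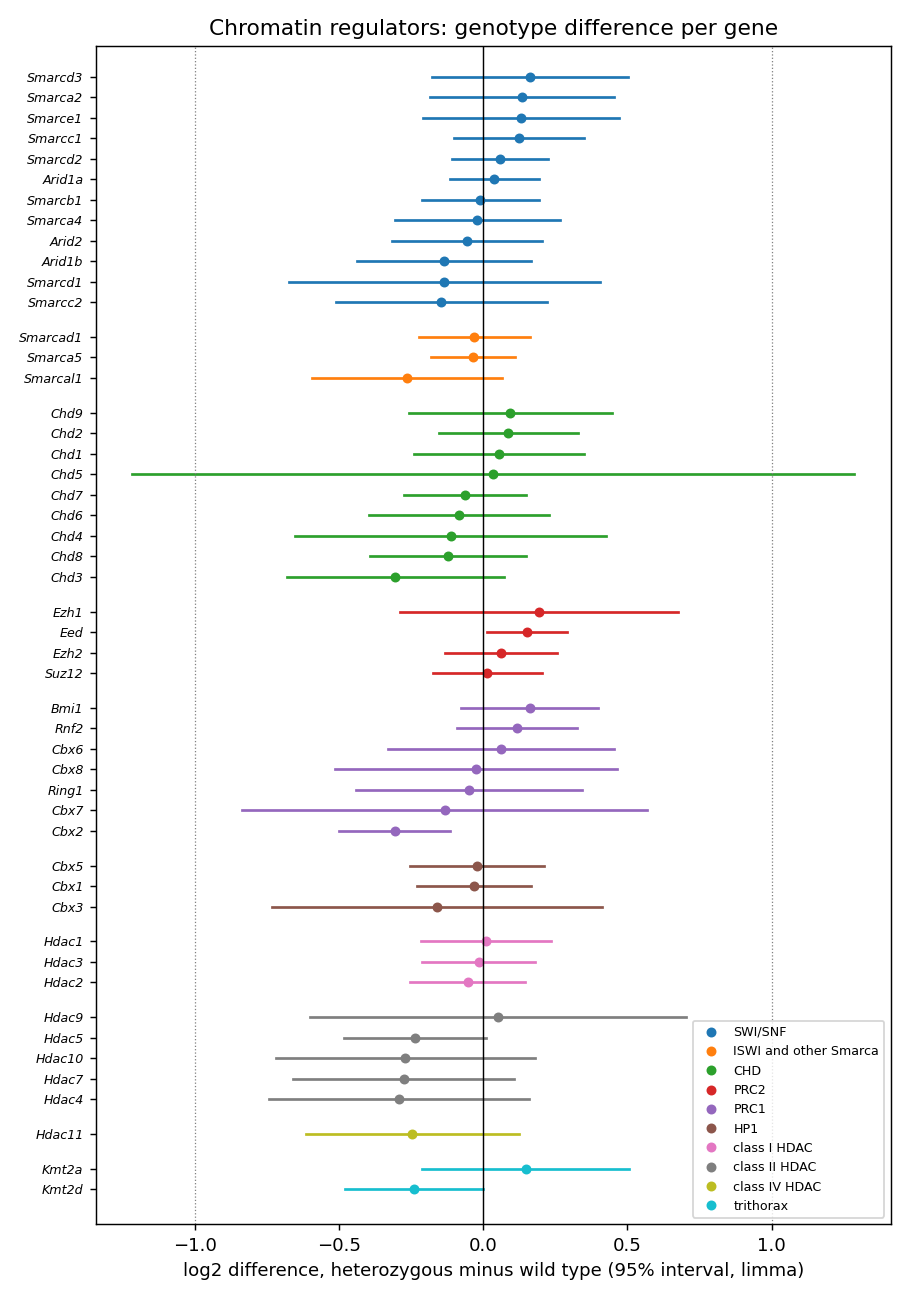
The log2 difference of each of the 49 members (points, heterozygous minus wild type, 3 embryos per genotype) with its 95% limma interval (bars), grouped and coloured by class. Differences lie between -0.31 and 0.19, and the interval of Chd5 alone crosses the dotted lines at -1 and 1.

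The 4 members whose genotypes did not overlap are described with their values in each embryo. Cbx2, a chromodomain subunit that brings PRC1 to methylated histone H3 and is known for its part in axial patterning, had the smallest p. Its signal was 746, 806 and 690 in wild-type embryos 1, 2 and 3 and 595, 625 and 589 in heterozygous embryos 1, 2 and 3. All 3 heterozygotes lay below all 3 wild types, and the closest pair was 625 against 690. The log2 difference was -0.31 (SE 0.09, 95% interval -0.50 to -0.11), with a limma adjusted p of 0.650. Within scan days it was -0.35 and -0.23. A second Cbx2 probe set, with a mean signal of 9.93, was too dim to be tested.

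Eed, the PRC2 subunit that binds trimethylated lysine 27 and stimulates the enzyme, was the member without overlap in the other direction. Its signal was 1682, 1725 and 1681 in the wild types and 1834, 1958 and 1860 in the heterozygotes. The wild types were close together, with a mean of 1696 ± 24.965 (SD, n = 3), and the heterozygous mean was 1884 ± 64.9 (SD, n = 3). The log2 difference was 0.15 (SE 0.06, 95% interval 0.01 to 0.29), with a limma adjusted p of 0.781. It was 0.15 on both scan days.

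Kmt2d, which methylates lysine 4 of histone H3 at enhancers, gave 353, 315 and 378 in wild types and 313, 289 and 280 in heterozygotes. The groups were separated by little, since wild-type embryo 2 at 315 and heterozygous embryo 1 at 313 nearly met. The log2 difference was -0.24 (SE 0.11, 95% interval from -0.48 to just below 0), with a limma adjusted p of 0.793, and it was -0.15 and -0.43 within the first and second scan days. A dimmer probe set of Kmt2d, at a mean signal of 18.9, differed by -0.96 with an SE of 0.55 and an adjusted p of 0.824.

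Hdac5, a class II deacetylase that represses MEF2 target genes in heart and muscle, gave 254, 253 and 274 in wild types and 231, 232 and 201 in heterozygotes. Each heterozygote was below each wild type. The log2 difference was -0.24 (SE 0.11, 95% interval -0.48 to 0.01), with a limma adjusted p of 0.798. Within the first and second scan days it was -0.13 and -0.44.

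**Figure D2:**
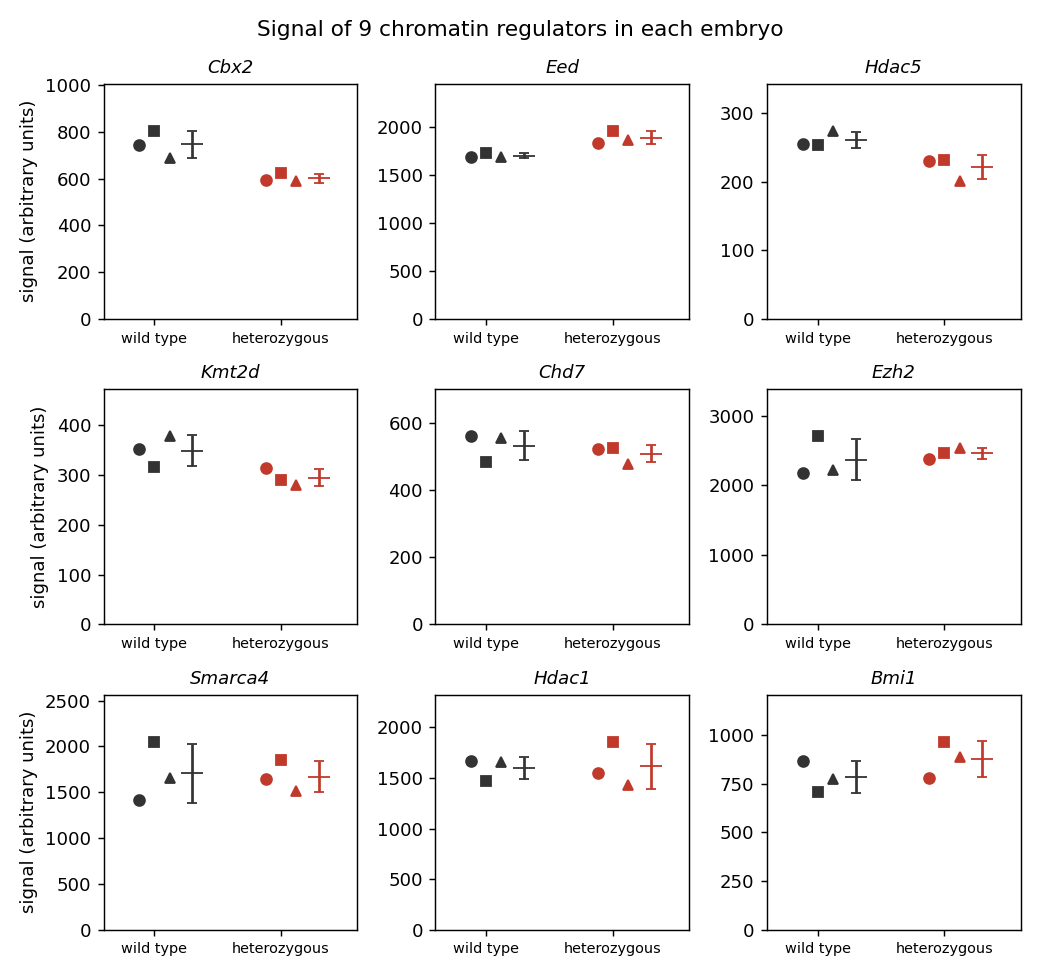
Signal in arbitrary units on axes from 0 for 9 chromatin regulators, with circles, squares and triangles for embryos 1, 2 and 3 and a bar for the mean and SD of each genotype (n = 3). Cbx2, Hdac5 and Kmt2d are lower and Eed is higher in heterozygotes without overlap, whereas Chd7, Ezh2, Smarca4, Hdac1 and Bmi1 overlap.

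Promoter sequences are shown for Eed and Hdac5, members without overlap in opposite directions, whose windows lie wholly upstream of the annotated gene. Of the other members without overlap, the Kmt2d window did not lie so, and Cbx2 had no entry in the RefSeq promoter table. The sequences are from RefSeq on GRCm38.p6 and hold the 250 bases before the transcription start, 5′ to 3′ on the minus strand for both genes, with each CG dinucleotide in capitals. The Eed window is chr7:89980977-89981226 and the Hdac5 window is chr11:102230173-102230422.
Eed: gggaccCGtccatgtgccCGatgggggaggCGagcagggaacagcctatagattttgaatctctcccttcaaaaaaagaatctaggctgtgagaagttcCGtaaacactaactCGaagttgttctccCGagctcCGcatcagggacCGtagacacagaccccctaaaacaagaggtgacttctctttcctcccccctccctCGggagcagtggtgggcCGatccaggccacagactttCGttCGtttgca
Hdac5: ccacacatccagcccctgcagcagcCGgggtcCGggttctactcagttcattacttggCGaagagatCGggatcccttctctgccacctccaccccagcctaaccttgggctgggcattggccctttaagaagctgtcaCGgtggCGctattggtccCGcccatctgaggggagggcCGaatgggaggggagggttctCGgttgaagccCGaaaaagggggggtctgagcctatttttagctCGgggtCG
Each window holds 12 CG dinucleotides, and 54.4% of the Eed bases and 60.8% of the Hdac5 bases are G or C. For comparison, 39 of the 49 members had an entry in the RefSeq promoter table, with 50 start sites in all. Their median was 21 CG dinucleotides per 250 bases, beside 6 over all 32851 entries of the table, so both windows are CG-rich for the table and below the median of the members. The p53 consensus half-site was searched because p53 is known to be stabilised when ribosome synthesis fails. It was sought by exact match, in either orientation since the half-site reads the same on both strands. Of the 50 member windows 6 held it (12%), those of Chd5, Chd6, Chd8, Hdac7 and Hdac9, beside 7.13% of all windows. Chd5 was counted for 2 start sites, so the 12% is a share of windows and not of genes. The half-site was not found in the Eed or Hdac5 window. The motif CCAAT, on either strand, was found in 12 member windows (24%) and in 33.8% of all windows, and the Hdac5 window held it at 2 places, both on the reverse strand as ATTGG.

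SWI/SNF is the remodeller that opens nucleosomes at enhancers, built from an ATPase (Smarca2 or Smarca4) and shared or alternative subunits. Its 12 genes were evenly divided on their brightest probe sets, 6 above 0 and 6 below, around a median of 0.01. On these probe sets the genotypes overlapped for all 12. The ATPase Smarca4, also called Brg1 and needed in neural crest and heart, gave 1416, 2052 and 1655 in wild types and 1642, 1852 and 1516 in heterozygotes. The wild types spanned the heterozygotes, and the log2 difference was -0.02 (SE 0.13, 95% interval -0.31 to 0.27). The core scaffold Smarcc1 gave 2993, 2591 and 2976 against 2934, 3632 and 2807. Heterozygous embryo 2 was the high value, and the difference was 0.12 (SE 0.10). The other tested probe sets of Smarcc1 differed by -0.15 and -0.07. Smarcd3, the subunit known as Baf60c from heart development, gave 193, 153 and 191 against 193, 238 and 174, a difference of 0.16 (SE 0.15). It too was highest in heterozygous embryo 2.

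Lower values in this class were seen for Smarcc2 and Arid1b. Smarcc2, the scaffold that can stand in for Smarcc1, gave 80.2, 89.9 and 79.5 in wild types and 64.5, 82.7 and 79.0 in heterozygotes. Arid1b, a DNA-binding subunit, gave 265, 283 and 318 against 221, 272 and 300. Both overlapped between genotypes, with differences of -0.14 (SE 0.16) for Smarcc2 and -0.13 (SE 0.13) for Arid1b. The remaining SWI/SNF members Smarca2, Smarcb1, Smarcd1, Smarcd2, Smarce1, Arid1a and Arid2 had differences between -0.13 and 0.13 on their brightest probe sets. A dimmer probe set differed by -0.41 for Smarca2, -0.10 for Smarce1 and -0.18 for Smarcb1. The dimmer ones of Arid2 differed by -0.08 to 0.07, and those of Smarcd2 and Arid1a are given below.

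The other 3 Smarca ATPases had negative differences on their brightest probe sets, from -0.26 to -0.03. Smarca5, the ISWI motor, differed by -0.03 (SE 0.06) at signals of 2676 ± 133 and 2612 ± 116 (SD, n = 3 per genotype). Its 95% interval was -0.18 to 0.11, and its other tested probe sets differed by -0.11 to 0.06. Smarcad1, a remodeller linked to heterochromatin, differed by -0.03 (SE 0.09). Smarcal1, an annealing helicase of stalled replication forks, gave 282, 244 and 259 in wild types and 248, 174 and 237 in heterozygotes. Heterozygous embryo 2 was the low value, and the difference was -0.26 (SE 0.15, limma adjusted p = 0.824), while a dimmer probe set of Smarcal1 differed by 0.06.

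The CHD remodellers carry a chromodomain next to their motor. The median of the 9 members was -0.06, and 5 of them had negative differences. Chd7, which acts in neural crest, gave 561, 483 and 555 in wild types and 524, 525 and 479 in heterozygotes. The groups overlapped, with a log2 difference of -0.06 (SE 0.09, 95% interval -0.28 to 0.15). The dimmer Chd7 probe set differed by -0.19 (SE 0.16). Chd3, a motor of the NuRD complex, had the lowest difference of the class at -0.30 (SE 0.17), with 124, 101 and 147 against 92.5, 95.3 and 110. The heterozygotes were in the lower part of the range, but embryo 3 of that group lay above wild-type embryo 2.

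Chd4, the main NuRD motor, had the widest spread within genotypes of the members with a mean signal over 100. It gave 1014, 737 and 598 in wild types and 565, 599 and 1044 in heterozygotes on its brightest probe set, which is a difference of -0.57 in the first scan day and 0.80 in the second. The next Chd4 probe set gave 587, 716 and 533 against 798, 615 and 587, so the embryos that were high on one were not high on the other. Chd2 gave 276, 294 and 297 against 278, 337 and 310, a difference of 0.09 (SE 0.11), and Chd9 gave 105, 80.4 and 103 against 94.8, 109 and 102, a difference of 0.09 (SE 0.16). Chd1, a remodeller of active genes, and Chd6 differed by 0.06 (SE 0.13) and -0.08 (SE 0.14). The other tested probe sets of Chd1 differed by -0.07 to 0.31. On the one at 0.31 (SE 0.15) the heterozygotes were higher without overlap, with a limma adjusted p of 0.799.

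Chd8, a remodeller that represses Wnt targets and p53 activity, was named because its probe sets disagreed. The brightest gave 322, 406 and 420 in wild types and 353, 370 and 326 in heterozygotes, a difference of -0.12 (SE 0.12). A much dimmer one gave 20.3, 21.5 and 34.8 against 39.5, 56.1 and 34.4, a difference of 0.73 (SE 0.29) with an unadjusted p of 0.0325 and a limma adjusted p of 0.781. On the second scan day that probe set differed by -0.02.

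All 4 PRC2 genes had positive differences, with a median of 0.11, where 52.7% of all tested genes were negative. Ezh2, the catalytic subunit of dividing cells, gave 2173, 2710 and 2228 in wild types and 2376, 2464 and 2541 in heterozygotes. Wild-type embryo 2 was above every heterozygote, and the difference was 0.06 (SE 0.09, 95% interval -0.13 to 0.25). Its paralogue Ezh1 differed by 0.19 (SE 0.22), at signals of 66.7 ± 13.9 and 76.4 ± 15.1 (SD, n = 3 per genotype). A dimmer Ezh1 probe set gave 17.0, 19.4 and 19.6 against 31.1, 28.1 and 22.0, without overlap, with a limma adjusted p of 0.831. Suz12, which holds PRC2 together, differed by 0.02 (SE 0.08), and its other tested probe sets by -0.40 to -0.02. Within the first scan day the PRC2 median was 0.14 and within the second 0.07. Eed alone of the 4 genes had the same sign on both, which the separation of its genotypes fixed in advance.

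Of the 7 PRC1 genes 3 had positive differences. The ring-finger ligase Rnf2 and its partner Bmi1, which together form the catalytic core, were among them. Bmi1 gave 869, 706 and 776 in wild types and 780, 966 and 886 in heterozygotes, a difference of 0.16 (SE 0.11), and its second probe set differed by 0.24 (SE 0.16). Rnf2 gave 1565, 1352 and 1639 against 1597, 1811 and 1530, a difference of 0.12 (SE 0.09), and its second probe set differed by 0.21 (SE 0.11). In both genes the 2 tested probe sets had the same sign and the genotypes overlapped, with limma adjusted p of 0.848 for Bmi1 and 0.863 for Rnf2. Ring1, the paralogue of Rnf2, differed by -0.05 (SE 0.18).

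Among the PRC1 chromodomain subunits, Cbx2 has been given above. Cbx7, known from stem cells, gave 38.8, 30.3 and 44.3 against 51.9, 22.3 and 33.5. Its values were dim and overlapped widely, with a difference of -0.13 (SE 0.31). Cbx6 differed by 0.06 (SE 0.17) and Cbx8 by -0.02 (SE 0.22).

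The HP1 proteins Cbx1, Cbx3 and Cbx5 bind methylated lysine 9 of histone H3 in heterochromatin. All 3 had small negative differences. Cbx1 differed by -0.03 (SE 0.09) and Cbx5 by -0.02 (SE 0.10), and Cbx3 gave 27.8, 37.2 and 27.0 against 27.9, 23.96 and 29.4, a difference of -0.16 (SE 0.26). The other tested probe sets of Cbx5 differed by -0.61 to -0.10. Those of Cbx1 differed by -0.32 to 0.00, and the genotypes did not overlap on 2 of them, at adjusted p of 0.801 and 0.824 in limma.

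Class I deacetylases, the catalytic subunits of nuclear corepressor complexes, were the most even class. Hdac1 gave 1664, 1473 and 1654 in wild types and 1552, 1859 and 1431 in heterozygotes. The heterozygotes spanned the wild types, and the difference was 0.01 (SE 0.10, 95% interval -0.22 to 0.23). Hdac2 gave 2546, 1988 and 2362 against 2199, 2260 and 2151, a difference of -0.05 (SE 0.09), and Hdac3 differed by -0.02 (SE 0.09). The 95% intervals of all 3 lay between -0.5 and 0.5.

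The class II deacetylases, several of which move between nucleus and cytoplasm, had the lowest median of the classes with over 1 member, -0.27. In this class 4 were negative and 1 positive, beside 52.7% negative of all tested genes. The class was dim, with a median signal of 66.3 against 361.6 over all members, and a median SE of 0.20 against 0.13. Besides Hdac5, it held Hdac4 (-0.29, SE 0.20), Hdac7, a regulator of vascular integrity (-0.28, SE 0.17), Hdac10 (-0.27, SE 0.20) and Hdac9 (0.05, SE 0.29). Hdac7 gave 110, 105 and 102 in wild types and 69.7, 90.9 and 103 in heterozygotes, so heterozygous embryo 3 was within the wild-type range. Hdac9 gave 20.1, 35.4 and 33.1 against 25.4, 36.0 and 29.1. None passed, with limma adjusted p from 0.798 to 0.981, and the class median was -0.13 within the first scan day and -0.35 within the second. The second Hdac4 probe set differed by 0.04 (SE 0.21).

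Hdac11, the one class IV deacetylase, gave 624, 692 and 426 in wild types and 435, 480 and 528 in heterozygotes. Wild-type embryo 3 was the low value, and the within-day differences were -0.52 and 0.31, against -0.24 (SE 0.17, adjusted p = 0.849 in limma) over all 6 embryos. Kmt2a, the trithorax methyltransferase that maintains Hox expression, gave 131, 195 and 171 against 171, 172 and 203. The groups overlapped, and the difference was 0.15 (SE 0.16).

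Probe sets of the same gene were compared where more than 1 could be tested. Of 31 such members, 15 had the same sign on every tested probe set, or 48.4%, beside 44.7% of the 5907 genes of this kind. That share depends on the number of probe sets. Among genes with exactly 2 tested probe sets, 14 of 19 members (73.7%) had the same sign on both, beside 57% of 3343 genes. The spread followed brightness. The 16 member probe sets with a mean signal over 1000 differed by -0.14 to 0.15, with a median SE of 0.09, and the 32 under 100 by -0.96 to 0.73, with a median SE of 0.28. Smarcd2, a SWI/SNF subunit, shows this: its brightest probe set differed by 0.06 (SE 0.07), the next by -0.25 (SE 0.12) and the dimmest by 0.64 (SE 0.28). Arid1a, the SWI/SNF subunit with a DNA-binding ARID domain, gave 1038, 1105 and 1083 against 1130, 1073 and 1113 on its brightest probe set. On the next one it gave 317, 344 and 313 against 259, 308 and 252, a difference of -0.25 (SE 0.11) without overlap and with a limma adjusted p of 0.793. A second Smarcb1 probe set ranged from 282 to 1138 within the heterozygotes alone, whereas the brightest ranged from 786 to 894.

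**Figure D3:**
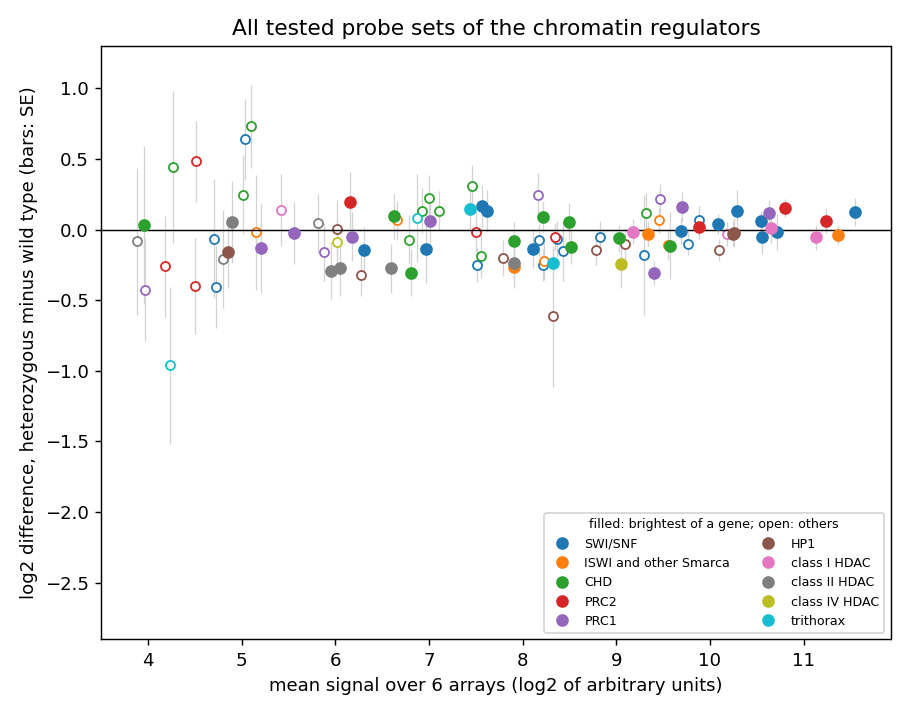
The log2 difference (heterozygous minus wild type, bars are the SE) of the 100 tested probe sets against their mean signal over 6 arrays on a log2 axis, with the brightest of each gene filled and the others open. Differences spread from -0.96 to 0.73 among dim probe sets and stay between -0.14 and 0.15 above a signal of 1000.

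Values within each scan day were compared as a check on that batch. Of the 49 members, 21 had the same sign on both days, or 42.9%, beside 51.1% of all tested genes. The member median was 0.00 within the first day and -0.01 within the second. For the 4 members without overlap the sign within each day is fixed by their separation and is no check. With scan day as a block, the limma adjusted p of Cbx2 was 0.82, and 0 of the 49 members passed.

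**Figure D4:**
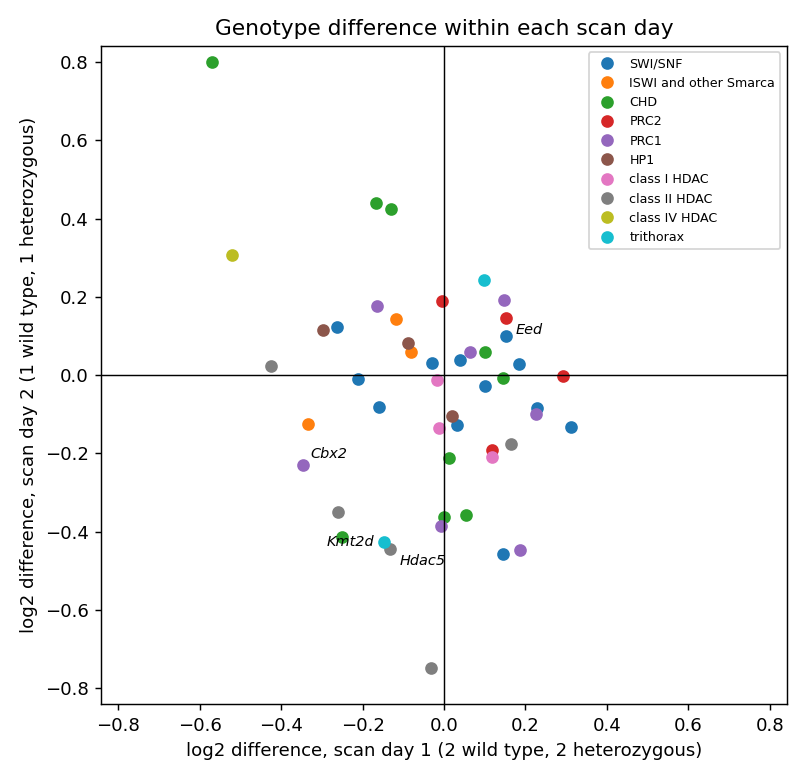
The log2 difference of each member over 4 arrays scanned together (first day, horizontal axis) and over the other 2 (second day, vertical axis), coloured by class, with the members without overlap named. The points fill all 4 quadrants, and 21 of 49 have the same sign on both days.

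Each heterozygous embryo was also set against the wild-type mean. In heterozygous embryo 1, 34 of the 49 members (69.4%) lay below it, beside 49.9% of all tested genes. In embryo 2 it was 26 members (53.1%) beside 53.3% of genes, and in embryo 3 it was 29 members (59.2%) beside 49.0% of genes. The median deviation of the members was -0.0386, -0.0053 and -0.0445 in embryos 1, 2 and 3, and that of all tested genes 0.0006, -0.0198 and 0.005. In wild-type embryos 1, 2 and 3, which make up that mean, 46.9%, 55.1% and 46.9% of the members lay below it. The median deviation of the members in these wild types was 0.0209, -0.0237 and 0.0299. These values have no test, and the members of 1 embryo share its array.

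Partner subunits and other chromatin regulators outside the members were examined in the same fit. From a list of 89 genes, 85 were matched to a probe set, 4 of these were left out as X-linked, and 79 were tested. In limma 0 were called, beside 0.124% of all tested genes. An unadjusted limma p under 0.05 was found for 3 of them (3.8%), beside 6.89% of all tested genes. Differences were positive for 37 and negative for 42 (53.2%, beside 52.7% of all tested genes), with a median of -0.01. Uhrf1, which guides maintenance DNA methylation, had the smallest p. It gave 1554, 1387 and 1607 in wild types and 1191, 1385 and 1180 in heterozygotes, where heterozygous embryo 2 and wild-type embryo 2 were nearly equal. Its log2 difference was -0.28 (SE 0.09, limma adjusted p = 0.70), and a second Uhrf1 probe set differed by -0.43 with an adjusted p of 0.727. The SWI/SNF-associated gene Bcl7b (-0.43, SE 0.15) and the ISWI partner Baz1a (-0.24, SE 0.12) followed among the negative ones. The PRC1-associated genes Yaf2 (0.21, SE 0.08) and L3mbtl2 (0.27, SE 0.13) and the NuRD subunit gene Mta3 (0.39, SE 0.21) had the smallest p among the positive ones. A second Yaf2 probe set differed by -0.05 and a second Baz1a probe set by 0.11. The other tested probe sets of Mta3 differed by 0.06 (SE 0.19) and -0.32 (SE 0.46).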

How the data were processed

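Total RNA (100 ng) from each single embryo was amplified in 2 cycles, and 20 µg of biotin-labelled cRNA was hybridised per array, per the labels' protocols. The authors deposited linear signal intensities processed in GCOS, a software package of Affymetrix, according to their deposited processing notes. The sources used here name no version or signal algorithm. Every array had a 2% trimmed mean of 150. Scan day and fluidics module come from the deposited instrument records, which hold other fields but no expression values. No fluidics module held both genotypes, so module and genotype cannot be told apart.

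Of 45101 probe sets, 64 controls were left out. Values were taken to log2(signal + 1.87), the 10th percentile. The 40% with the lowest mean log2 value were left out (below a signal of about 13.2). Differences were fitted on all 27022 others with limma 3.58.1 in R 4.3.3 (lmFit, eBayes with an intensity trend, genotype as sole term), as two-sided tests. P-values were adjusted by Benjamini-Hochberg across all of these probe sets, and 0.05 was the threshold. The fit was tested on simulated data. Symbols come from the platform annotation, and positions from RefSeq GRCm38.p6. Members and lists were chosen with earlier results of these data known. Named members are the 2 with the smallest p per class and direction (1 in classes under 5), Chd7, Ezh2, Smarca4, Hdac1 and Bmi1, and genes whose probe sets differ in sign with an unadjusted p under 0.05 on any; related genes are the 3 with the smallest p per direction. Chd4, Ezh1, Smarca5, Smarcb1, Chd5 and the dimmer probe sets of Chd1 were described after their values were seen. Precision is limited by having 3 arrays for each genotype. Alternatives were other pseudocounts, scalings, filters, variance settings, blocks, each array left out, and averaging the probe sets of each gene. Figures were drawn with matplotlib 3.10.9.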

Additional observations from a re-analysis of the deposited data

How the results depend on the processing

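The count of 0 called members, of 0 called member probe sets and of 0 called related genes held under all alternatives run, and the count of members with a negative difference ranged from 25 to 31. The members at an unadjusted p under 0.05, 3 in all, became 1 with equal array medians, without the intensity trend, with the replicate block and with scan day as a block, and 1 to 6 when 1 array was left out. They were 1 without wild-type embryo 1 or without heterozygous embryo 2 or 3, and 6 without wild-type embryo 2. The median difference of -0.02 became -0.0465 when the probe sets of each gene were averaged, and -0.0552 to -0.0092 when 1 array was left out. The count of probe sets called over the whole array, 22, became 0 without the intensity trend, 10 with the replicate block, 14 with scan day as a block and 8 to 20 when 1 array was left out. Tcof1 stayed at -0.88 but lost its call without the trend (adjusted p = 0.413), with the replicate block (0.182) and with scan day as a block (0.0906), and lay between -0.95 and -0.77 when 1 array was left out. Deviations from the genotype mean in embryos with the same replicate number correlated at -0.08, -0.11 and -0.02. Each correlation rests on 1 embryo per genotype, so whether the replicate numbers pair the embryos cannot be decided from these values.

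Of 34 named genes, 24 kept their direction under every alternative and 10 did not, and none was called under any. With averaged probe sets the difference became 0.35 for Chd8, -0.0331 for Smarcc1, 0.017 for Hdac2 and -0.11 for Arid1a. Hdac1 became -0.0063 with quantile normalization, -0.0061 with equal array medians and -0.0161 with array weights. Leaving out 1 array gave -0.0973 to 0.0915 for Hdac1, -0.15 to 0.0237 for Hdac2, -0.15 to 0.12 for Smarca4, -0.19 to 0.19 for Hdac9, -0.43 to 0.15 for Cbx7, -0.0264 to 0.16 for Chd9 and -0.0099 to 0.27 for Kmt2a. The causes were not tested. Dim probe sets, with wide intervals, limit what can be seen for Chd5, Cbx3, Cbx7 and Hdac9.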
